A study of Mus musculus with 12 samples.

Results

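Fatty acid oxidation and ketone synthesis were followed through 37 genes of the 27179 in the deposited count table of mouse liver. The genes were listed as targets of Ppara and as enzymes of mitochondrial and peroxisomal fatty acid oxidation and of ketogenesis, and were found by matching the Entrez identifiers of the table to mouse symbols. All 37 were matched and all 37 passed the filter on low counts. No measured value entered the rule, but the list was drawn up with earlier results of the same libraries known.

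The libraries came from snap-frozen liver of 4 groups of mice with 3 libraries in each. CD Vec mice ate a chow diet and received empty vector. CD Onco mice ate the same diet and received human c-MET together with ΔN90-β-catenin, a form of β-catenin that lacks its N terminus and is constitutively active. The LPD Vec and LPD Onco groups were given these injections on a low protein diet. Onco is the name that the columns of the count table give to the groups with c-MET and β-catenin, and the sample titles call the vector groups WT. All mice carried plasmids delivered by SB-HTVI, hydrodynamic tail vein injection of Sleeping Beauty transposon plasmids, in which an EF1α promoter drives the oncogenes, so that the transgenes reached some of the hepatocytes and the bulk tissue mixed cells with and without them. Per the study's methods the mice were young adult males, were put on their diets before the injection and kept on them, and were generally handled in the early afternoon after a fast. They name the strain as C57/Bl3, and the study elsewhere describes a mixed 129/Ola and C57BL/6 background. Liver was taken from all groups when the CD Onco mice reached their end point, so the diets were compared at 1 time and not at equal tumor burden.

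Long-chain fatty acids are activated to acyl-CoA, carried into mitochondria by the carnitine shuttle and shortened to acetyl-CoA by repeated turns of the β-oxidation spiral. In each turn the electrons of the acyl-CoA dehydrogenase step leave through the electron transfer flavoprotein. Very long chains are first shortened in peroxisomes. In a fasting liver much of the acetyl-CoA is turned into ketone bodies for other organs, and the nuclear receptor PPARα, the product of Ppara, switches on most of these genes.

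The total counts ran from 19476209 to 31990267 per library. The labels name the tissue as liver and the cell type as hepatocyte. Hepatocyte markers were abundant. A sum of 8, to which Alb gave the most, came to 129472 to 131571 CPM (counts per 1000000, scaled by edgeR's TMM factors) in CD Vec, 127844 to 154198 in CD Onco, 116581 to 142011 in LPD Vec and 89501 to 123983 in LPD Onco. On CD the 8 did not move together, since Trf and Ahsg rose and Apob and Ttr fell. For LPD against CD in Onco 1 of the 8 was higher and 3 were lower. The sum of 5 cholangiocyte markers was 36.8 to 46.3 CPM in CD Vec and between 121 and 382 CPM in CD Onco, against 40.8 to 57.6 CPM across both LPD groups. Most of that sum was Spp1, which other cells also make, with a mean of 34.7 CPM in CD Vec and 253 CPM in CD Onco. Krt19 rose with it, while Krt7, Epcam and Sox9 did not pass (log2 0.33, -0.50 and -0.41). Of 6 stellate cell markers 2 rose and 2 fell on CD, and Col1a1 went from a mean of 8.12 to 123 CPM. For LPD against CD in Onco 2 of the 6 were higher and 2 lower, with a Col1a1 mean of 8.30 CPM in LPD Onco. Neutrophil markers summed to at most 2.29 CPM in CD Vec and 4.79 to 12.7 CPM in CD Onco, against 1.37 to 3.39 CPM across both LPD groups. T and NK cell markers summed to at most 1.82 CPM in CD Vec and 1.80 CPM in LPD Vec, and lay between 2.74 and 4.68 CPM in CD Onco and 2.79 and 4.07 CPM in LPD Onco. Macrophage markers summed to between 70.9 and 145 CPM in CD Vec, 111 and 170 CPM in CD Onco, 102 and 130 CPM in LPD Vec and 122 and 237 CPM in LPD Onco, with 1 of 5 (Cd68) higher on CD. Of 5 endothelial markers 1 (Clec4g) was lower on CD. The 4 markers of cycling cells summed to between 2.33 and 9.95 CPM in CD Vec, 100 and 142 CPM in CD Onco, 4.22 and 4.99 CPM in LPD Vec and 13.4 and 41.5 CPM in LPD Onco. Adipocyte and skeletal muscle markers, whose cells also burn fat, summed to at most 1.22 and 0.49 CPM in any library. The part of these cell types in the results was not tested. In bulk tissue, fewer hepatocytes and less RNA per hepatocyte cannot be told apart.

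Within their groups 2 libraries were low throughout the set. LPD Vec replicate 3 was the lowest of its group for 34 of the 37 genes, and LPD Onco replicate 1 likewise for 34 of 37, where each was lowest for 34.5% and 35.1% of all genes tested. The order was less one-sided in the chow groups, where CD Onco replicate 3 was the lowest for 21 genes. The same 2 libraries held the lowest hepatocyte marker sums of their groups, 116581 and 89501 CPM, and the part of this in the results was not tested.

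To show where transcription of some of these genes begins, 300 bases around the start site (250 before and 50 after) are printed from RefSeq on GRCm38.p6. Windows were held for 32 of the 37 genes, and there was none for Vnn1, Decr1, Acat1, Acaa2 and Crat. Fabp1, Acsl1, Cpt2 and Creb3l3 are shown as examples, not picked by a rule, of the 21 genes that fell on CD and were not called on LPD. Pdk4 is shown because it moved the other way, and Hadhb because its window overlaps that of Hadha. Capitals mark AGGTCA, the half-site of many nuclear receptors, on either strand, and AGGNCANAGGTCA, a direct repeat of the kind bound by PPARα with its partner RXR. The windows lie at chr6:71199629-71199928 (plus strand) for Fabp1, chr8:46470787-46471086 (plus) for Acsl1, chr4:107923540-107923839 (minus) for Cpt2, chr10:81092542-81092841 (minus) for Creb3l3, chr6:5496229-5496528 (minus) for Pdk4 and chr5:30155003-30155302 (plus) for Hadhb. Creb3l3 is shown at both of its starts, the other at chr10:81098823-81099122 (minus), and Acsl1 had another window that is not shown.
Fabp1: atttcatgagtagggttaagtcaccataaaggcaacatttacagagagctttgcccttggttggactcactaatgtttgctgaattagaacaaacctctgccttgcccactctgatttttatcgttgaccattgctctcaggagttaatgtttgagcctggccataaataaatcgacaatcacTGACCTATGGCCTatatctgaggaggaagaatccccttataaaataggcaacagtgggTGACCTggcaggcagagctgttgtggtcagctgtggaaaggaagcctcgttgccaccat
Acsl1: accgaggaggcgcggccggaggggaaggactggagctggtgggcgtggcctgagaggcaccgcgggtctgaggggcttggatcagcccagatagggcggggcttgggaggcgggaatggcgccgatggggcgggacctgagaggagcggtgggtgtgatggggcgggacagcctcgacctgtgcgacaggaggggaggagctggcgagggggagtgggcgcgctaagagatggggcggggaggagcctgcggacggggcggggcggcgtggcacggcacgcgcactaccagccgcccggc
Cpt2: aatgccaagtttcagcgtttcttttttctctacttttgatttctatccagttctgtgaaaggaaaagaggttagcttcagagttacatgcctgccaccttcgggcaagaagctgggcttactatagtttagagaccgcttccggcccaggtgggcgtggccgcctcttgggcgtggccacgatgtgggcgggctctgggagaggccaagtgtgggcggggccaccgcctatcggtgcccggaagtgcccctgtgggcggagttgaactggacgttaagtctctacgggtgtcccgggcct
Creb3l3 (internal start): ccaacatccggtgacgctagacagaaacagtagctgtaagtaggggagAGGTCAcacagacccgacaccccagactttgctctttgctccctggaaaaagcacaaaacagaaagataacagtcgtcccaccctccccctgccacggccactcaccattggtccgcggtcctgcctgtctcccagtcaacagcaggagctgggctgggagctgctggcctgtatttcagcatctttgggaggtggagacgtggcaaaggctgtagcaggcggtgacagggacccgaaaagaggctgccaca
Creb3l3 (outer start): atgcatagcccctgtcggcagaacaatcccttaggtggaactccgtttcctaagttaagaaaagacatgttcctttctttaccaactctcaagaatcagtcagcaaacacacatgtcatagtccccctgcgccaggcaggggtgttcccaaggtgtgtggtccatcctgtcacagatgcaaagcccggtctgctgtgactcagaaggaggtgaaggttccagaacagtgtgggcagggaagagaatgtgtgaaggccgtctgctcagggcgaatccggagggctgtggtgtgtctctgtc
Pdk4: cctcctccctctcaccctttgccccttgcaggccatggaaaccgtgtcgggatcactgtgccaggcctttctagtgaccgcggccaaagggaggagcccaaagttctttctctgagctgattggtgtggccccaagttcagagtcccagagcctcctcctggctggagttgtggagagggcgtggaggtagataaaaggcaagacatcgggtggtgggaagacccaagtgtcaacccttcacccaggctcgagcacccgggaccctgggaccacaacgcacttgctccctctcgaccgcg
Hadhb: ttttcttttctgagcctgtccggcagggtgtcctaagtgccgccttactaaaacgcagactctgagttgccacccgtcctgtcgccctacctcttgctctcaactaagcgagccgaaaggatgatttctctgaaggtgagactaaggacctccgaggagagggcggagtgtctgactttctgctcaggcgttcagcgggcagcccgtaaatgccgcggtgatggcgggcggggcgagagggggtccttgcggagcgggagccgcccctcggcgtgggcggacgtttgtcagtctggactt

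Fabp1 held the direct repeat on the opposite strand, so that it reads there as its reverse complement, at position -67 from the start site. It was the 1 gene of the set to hold it, in 1 of 36 windows, against 0.0944% of all 32851 windows of the same length. The stricter AGGTCANAGGTCA stood in 0 of the 36 windows and in 0.0396% of all windows. The AGGTCA half-site, which the repeats contain, stood in 9 windows of 8 genes (Acadm, Acadvl, Acot3, Acot4, Cpt1a, Creb3l3, Echs1 and Fabp1), or 25.0% of the windows against 16.3% of all. In Creb3l3 it lay at position -202 of the internal start, and the window at the outer start held none. The other printed windows and the other Acsl1 window held no match. These matches describe the letters in the windows alone. Hadha and Hadhb, the subunits of the mitochondrial trifunctional protein, are transcribed away from each other with 272 bases between them, and their windows share 228 bases.

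Levels differed widely between the genes when taken per length, as mean CPM per kilobase of the longest protein-coding transcript in CD Vec. Fabp1, which carries fatty acids through the cytosol, stood at 9512. It was followed by the thiolases Acaa2 and Acaa1b at 860 and 750, the flavoprotein subunit Etfb at 477 and the acyl-CoA synthetase Acsl1 at 384. At the other end Pdk4 stood at 1.11 and the coactivator Ppargc1a at 1.41. Acaa1a and Acaa1b are near-identical neighbours, 183934 bases apart on chromosome 9, and Acot1 to Acot4 form a cluster of 72540 bases on chromosome 12 (chr12:83987861-84060400). How reads shared by such copies were counted is not given in the sources used here, so the split within each family is uncertain.

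The CD Onco group had the lowest mean of the 4 groups for 29 of the 37 genes, while it had the lowest mean for 37.3% of all genes tested. Summed over the set, the libraries gave 16407, 18018 and 19046 CPM in CD Vec, 9297, 9524 and 12103 CPM in CD Onco, 16749, 20707 and 20841 CPM in LPD Vec, and 13729, 19921 and 21192 CPM in LPD Onco. All 3 CD Onco libraries lay below the other 9. Without Fabp1, which dominates the sum, they held 7070 to 8589 CPM and the others 9707 to 14175 CPM.

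**Figure D1:**
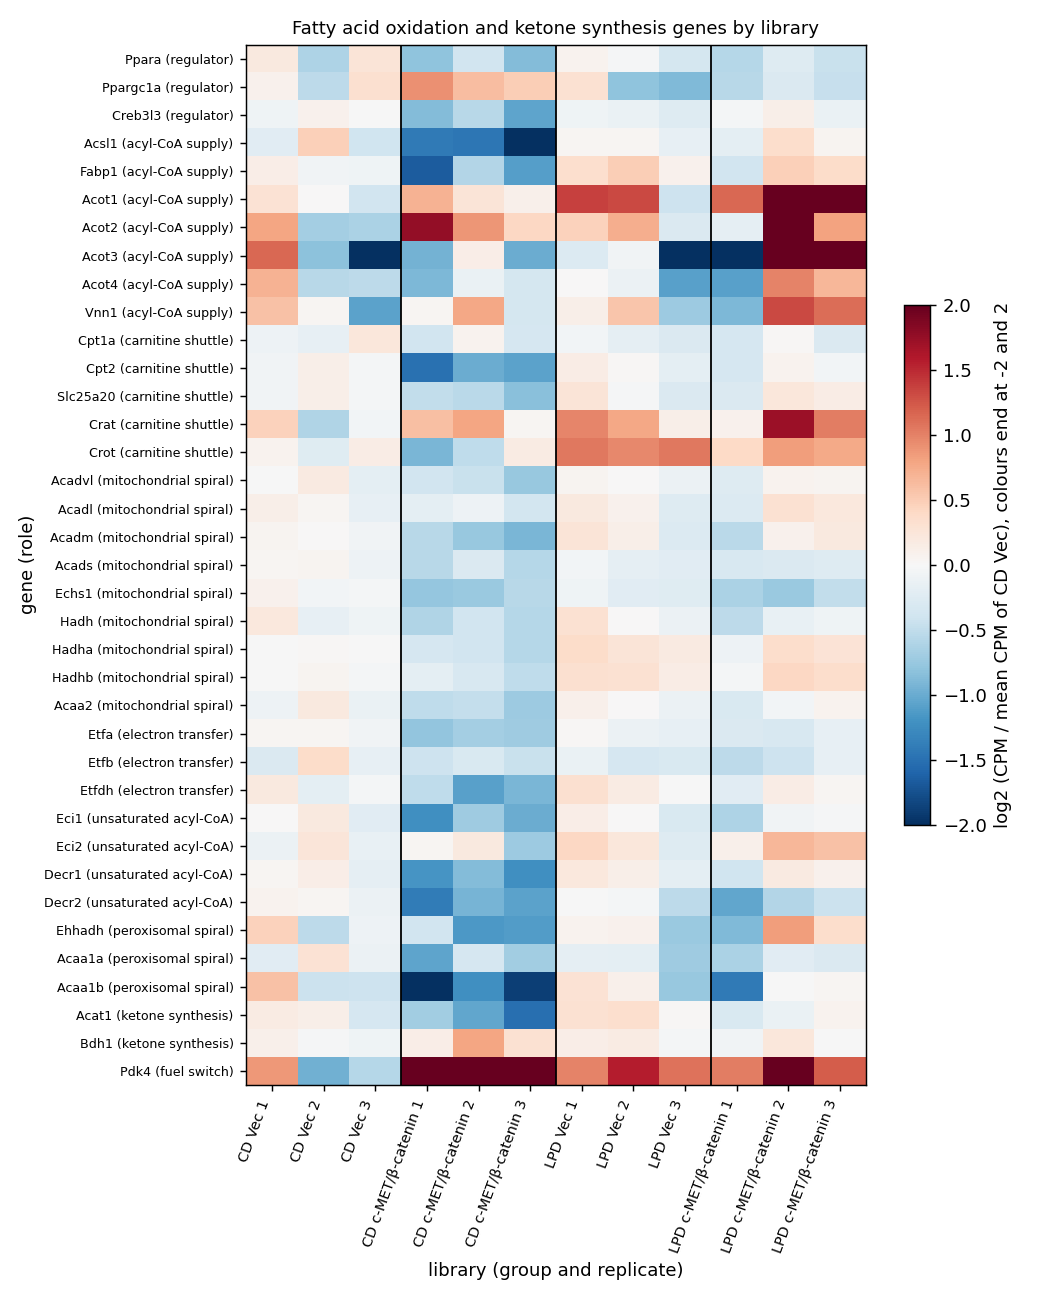
Level of each of the 37 genes (rows, with role) in each of the 12 libraries (columns), as log2 of its CPM over the mean CPM of CD Vec, with colours ending at -2 and 2. Most rows are blue in the 3 CD Onco libraries, where the group mean was the lowest of the 4 for 29 genes, and LPD Onco replicate 1 is bluer than its 2 companions.

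The first comparison asked what the oncogenes did on the chow diet. On CD, 21 of the 37 genes fell and 1, Pdk4, rose, while in the same fit 16.7% of all 13947 genes tested were lower and 18.7% higher (35.4% in either direction). Calls were made with edgeR's quasi-likelihood test at a Benjamini-Hochberg adjusted p under 0.05 over all genes tested. The median log2 fold change of the set was -0.52, against -0.01 over all genes. For 22 genes the 3 oncogene libraries were all below the 3 vector libraries and for 3 all above, where 20.4% and 22.2% of all genes were separated in this way. The falls were largest for Acaa1b, Acsl1 and Cpt2. With total counts alone as the scale, which moved the median of all genes to 0.28 and that of the set to -0.23, 12 genes were lower and 3 higher, the additional ones being Ppargc1a and Bdh1. In that fit 40.7% of all genes were called in either direction. The 15 calls of 37 were thus near the background with both directions pooled. The share of all genes called lower in that fit is not given here. The median of the set (-0.23) was below that of all genes (0.28).

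In the LPD-fed mice the same injection moved no gene of the set past the threshold (0 of 37), where 1.32% of all genes passed (1.15% higher and 0.165% lower). There 3 genes had an unadjusted p under 0.05, against 11.1% of all genes, and DESeq2 called 2, Acot1 and Echs1. The median log2 fold change was -0.08, against 0.01 over all genes, and with total counts as the scale 0.05 against 0.12. A p that misses the threshold does not show that a gene was level, and the 95% intervals differed in width from gene to gene. Etfa, the gene with the smallest spread within groups, had an interval of -0.42 to 0.07 on the log2 scale, whereas Acot3 had one of -0.10 to 4.24.

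**Figure D2:**
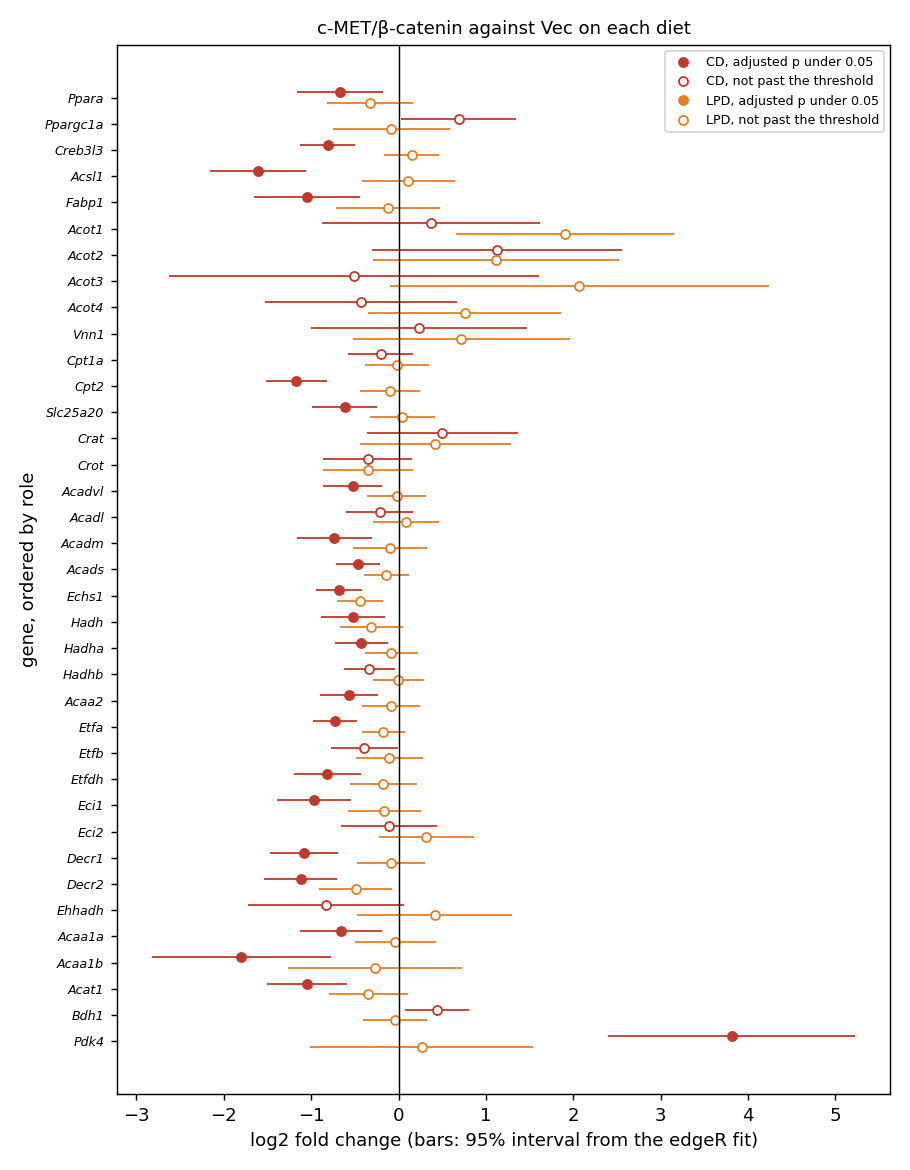
Difference between Onco (c-MET/β-catenin in the legend) and Vec libraries for each gene, as log2 fold change, on CD (red) and LPD (orange), with 95% intervals from the edgeR fit; filled points passed an adjusted p of 0.05. On CD 22 points are filled, 21 of them left of 0, and on LPD 0 are filled.

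Among the regulators, Ppara itself was at 478, 273 and 500 CPM in CD Vec, 238, 319 and 230 CPM in CD Onco, 439, 409 and 325 CPM in LPD Vec and 280, 349 and 308 CPM in LPD Onco. It fell on CD by 0.67 on the log2 scale (SE 0.23, adjusted p = 0.0363), although CD Vec replicate 2 lay among the oncogene libraries. Ppara lost that call when any 1 of 5 libraries was left out (LPD Vec replicate 2, CD Vec replicates 1 and 3, and CD Onco replicates 1 and 3), with adjusted p of 0.0527 to 0.132. It was also lost with total counts as the scale, where the fall was 0.39 (adjusted p = 0.213), and with only the 2 groups compared (0.113). The adjusted p was 0.0512 with LPD Vec replicate 3 and LPD Onco replicate 1 both left out and 0.0632 with replicate number as a block. With the runs of dataset numbers described below as a term, the fall was 0.91 (adjusted p = 0.195). On LPD the difference of Ppara was -0.32 (SE 0.22, adjusted p = 0.693).

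Creb3l3 encodes CREB-H, a liver transcription factor that acts with PPARα in fasting. Its levels were 353, 399 and 373 CPM in CD Vec and 205, 256 and 181 CPM in CD Onco, with no overlap, and 353, 342 and 312 CPM in LPD Vec and 366, 409 and 342 CPM in LPD Onco, which overlapped. Creb3l3 fell by 0.81 on CD (log2 scale, SE 0.14, adjusted p = 0.00124). On LPD the difference was 0.15 (SE 0.14, adjusted p = 0.821).

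Ppargc1a, the coactivator PGC-1α, was a scarce transcript. It was at 9.63, 6.37 and 11.4 CPM in CD Vec, 17.2, 14.0 and 12.8 CPM in CD Onco, 11.3, 5.24 and 4.92 CPM in LPD Vec and 6.21, 7.44 and 6.60 CPM in LPD Onco. The CD oncogene libraries were all above the CD vector libraries, but the log2 fold change of 0.69 did not pass (SE 0.30, adjusted p = 0.0974). It passed with LPD Vec replicate 1 left out (adjusted p = 0.0331) and with total counts as the scale (adjusted p = 0.0218). Within the run of dataset numbers, described below, that held all 4 groups, the log2 difference on CD was 0.17, with 1 library in each CD group and no test.

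Supply of acyl-CoA was described by 7 genes, of which 2 fell on CD. Acsl1, the main long-chain acyl-CoA synthetase of liver, was at 1274, 2083 and 1135 CPM in CD Vec and 562, 551 and 364 CPM in CD Onco. It was at 1534, 1546 and 1335 CPM in LPD Vec and 1311, 1912 and 1550 CPM in LPD Onco. The CD oncogene libraries thus stood apart from the other 9. The fall on CD was 1.60 on the log2 scale, to 0.329 of the vector level (SE 0.25, adjusted p = 0.000547), and the difference on LPD was 0.11 (SE 0.25, adjusted p = 0.94).

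Fabp1, the most abundant transcript of the set, was at 5776, 5023 and 4982 CPM in CD Vec and at 1654, 3514 and 2453 CPM in CD Onco, a fall of 1.05 on the log2 scale (SE 0.28, adjusted p = 0.0117). In LPD Vec it was at 6666, 7409 and 5601 CPM and in LPD Onco at 4022, 7310 and 6780 CPM, with a log2 difference of -0.12 (SE 0.27, adjusted p = 0.943). The LPD groups overlapped, with LPD Onco replicate 1 as the lowest of the 6.

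The acyl-CoA thioesterases Acot1 to Acot4, which split acyl-CoA back into fatty acid and CoA, and the pantetheinase Vnn1, a classic PPARα target, did not pass on either diet. They varied strongly between libraries of the same group. The SD of log2 CPM within groups was 1.58 for Acot3, higher than in 99.7% of all genes, and 0.90, 0.86, 0.85 and 0.75 for Acot2, Vnn1, Acot1 and Acot4, against a median of 0.28 over all genes. Vnn1 was at 76.1, 51.9 and 24.2 CPM in CD Vec, 52.2, 87.1 and 39.9 CPM in CD Onco, 55.1, 74.4 and 30.8 CPM in LPD Vec and 27.2, 127 and 110 CPM in LPD Onco. Its groups overlapped in each comparison, and its log2 fold change on CD of 0.23 (SE 0.56, adjusted p = 0.775) turned to -0.10 without CD Vec replicate 3 and to -0.14 without CD Onco replicate 2. Acot1 in LPD Onco was at 23.2 CPM in replicate 1 and at 136 and 70.3 CPM in the other two, and its log2 fold change on LPD of 1.90 (SE 0.57) had an adjusted p of 0.168. Without LPD Onco replicate 1 it was the 1 gene of the set called on LPD.

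**Figure D3:**
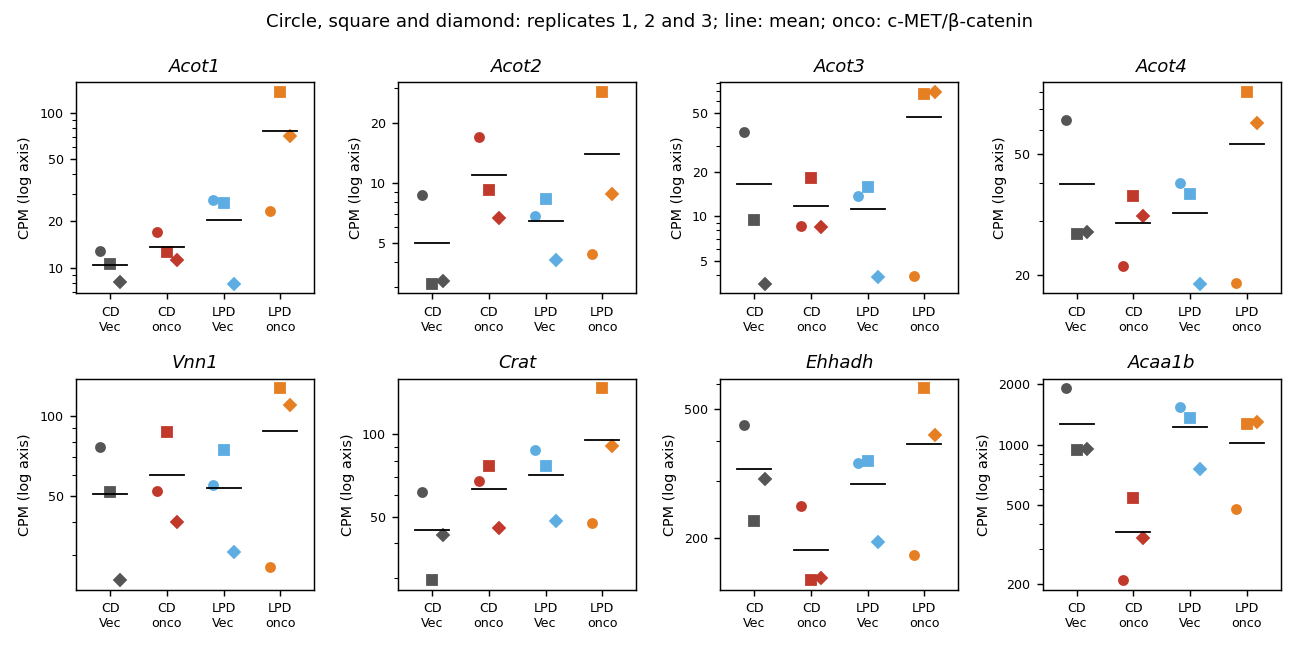
CPM (log axis) of 8 genes with wide spread in each library, by group, with circle, square and diamond for replicates 1, 2 and 3 and a line at the mean of 3. In LPD Onco the circle lies below the square and the diamond in each panel, for Acot3 at 3.96 CPM against 67.0 and 69.1 CPM.

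At the carnitine shuttle 2 of 5 genes fell on CD. Cpt1a, the malonyl-CoA-sensitive step on the outer membrane, was at 490, 471 and 617 CPM in CD Vec, 402, 552 and 416 CPM in CD Onco, 508, 467 and 430 CPM in LPD Vec and 418, 533 and 432 CPM in LPD Onco. All 4 groups overlapped. Its log2 fold change was -0.20 on CD (interval -0.57 to 0.16, adjusted p = 0.371; 0.08 with total counts as the scale) and -0.02 on LPD (interval -0.39 to 0.35).

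Cpt2, which re-forms acyl-CoA inside the mitochondrion, was at 150, 172 and 154 CPM in CD Vec and 56.4, 79.6 and 75.6 CPM in CD Onco. In LPD Vec it was at 176, 161 and 138 CPM and in LPD Onco at 126, 166 and 152 CPM. The CD oncogene libraries held the 3 lowest values of the 12. Cpt2 fell by 1.17 on CD (log2 scale, SE 0.16, adjusted p = 0.000247) and differed by -0.10 on LPD (SE 0.16, adjusted p = 0.913). The carrier Slc25a20, which exchanges acylcarnitine for carnitine between them, fell by 0.62 on CD (SE 0.17, adjusted p = 0.0146; 0.0513 without CD Onco replicate 3 and 0.124 with total counts as the scale). Crat and Crot, which act on short chains and on the medium chains that leave peroxisomes, did not pass on either diet. Crot passed on CD without CD Onco replicate 3, where its log2 fold change was -0.70 (adjusted p = 0.0159) in place of -0.35.

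In the mitochondrial spiral 7 of 9 genes fell on CD, and all 9 log2 fold changes were negative, from -0.73 to -0.22. With total counts as the scale 1 of the 9, Echs1, was called, and Acadm, Acads, Acadvl, Hadh, Hadha and Acaa2 had adjusted p of 0.0784 to 0.449. Acadm, the medium-chain dehydrogenase, was at 358, 348 and 329 CPM in CD Vec, 235, 204 and 183 CPM in CD Onco, 411, 373 and 286 CPM in LPD Vec and 237, 368 and 395 CPM in LPD Onco. Its CD groups were separate and its LPD groups overlapped. The fall on CD was 0.73 (log2 scale, SE 0.20, adjusted p = 0.0128), and on LPD the difference was -0.10 (SE 0.20, adjusted p = 0.931).

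The short-chain dehydrogenase Acads, the hydratase Echs1 and the thiolase Acaa2 fell on CD by 0.46, 0.68 and 0.57 on the log2 scale. Echs1 had 407, 369 and 372 CPM in CD Vec and 224, 229 and 261 CPM in CD Onco, and 359, 327 and 325 CPM in LPD Vec and 247, 229 and 271 CPM in LPD Onco. The oncogene libraries lay below the vector libraries on both diets. Its difference on LPD, -0.44 (SE 0.12), had an unadjusted p of 0.00352 and an adjusted p of 0.12. Acadvl, Hadh and Hadha, which act on very long chains, at the dehydrogenation of hydroxyacyl-CoA and in the trifunctional protein, fell by 0.52, 0.52 and 0.43. These last 3 lost the call with single libraries left out: Acadvl without CD Vec replicate 2 or CD Onco replicate 3 (adjusted p up to 0.0694), Hadh without CD Vec replicate 1 or CD Onco replicates 1 or 3 (up to 0.11), and Hadha without any CD Vec library or without CD Onco replicates 2 or 3 (up to 0.0967). Acadl and Hadhb did not pass (adjusted p = 0.36 and 0.0726), although Hadhb did without LPD Onco replicate 1 (0.0427).

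Electrons of the acyl-CoA dehydrogenase step leave the spiral through Etfa, Etfb and Etfdh. Etfa had the narrowest spread of the 37 genes within groups, an SD of 0.078 in log2 CPM. It was at 456, 457 and 423 CPM in CD Vec, 257, 279 and 273 CPM in CD Onco, 454, 411 and 397 CPM in LPD Vec and 364, 358 and 397 CPM in LPD Onco. Etfa fell by 0.72 on CD (SE 0.11, adjusted p = 0.000571), and the LPD groups overlapped. Etfdh, the step that hands the electrons to ubiquinone, fell by 0.81 on CD (SE 0.18, adjusted p = 0.00393), and Etfb had -0.39 (SE 0.18, adjusted p = 0.104; -0.51 and 0.0461 without CD Vec replicate 1) with its CD groups separate.

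Unsaturated chains need isomerases and reductases to be oxidized fully, and 3 of these 4 genes fell on CD. Decr1, the mitochondrial dienoyl-CoA reductase, was at 271, 289 and 234 CPM in CD Vec, 117, 145 and 113 CPM in CD Onco, 308, 288 and 231 CPM in LPD Vec and 201, 300 and 280 CPM in LPD Onco. It fell by 1.08 on CD (SE 0.18, adjusted p = 0.000753), with -0.08 on LPD (SE 0.18, adjusted p = 0.936). Its peroxisomal counterpart Decr2 fell by 1.12 on CD and the isomerase Eci1 by 0.96 (adjusted p = 0.000958 and 0.0025), whereas Eci2 had -0.11 (adjusted p = 0.768). On LPD, Decr2 had -0.49 (SE 0.19, unadjusted p = 0.0243, adjusted p = 0.331).

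Of the 3 peroxisomal spiral genes 2 fell on CD. Acaa1b, a peroxisomal thiolase, was at 1909, 936 and 954 CPM in CD Vec and 210, 541 and 343 CPM in CD Onco, and at 1547, 1363 and 752 CPM in LPD Vec and 475, 1260 and 1301 CPM in LPD Onco. All CD oncogene libraries were below all CD vector libraries, although in each of the 4 groups the highest library was over 2 times the lowest. Its fall on CD, 1.80 on the log2 scale (SE 0.47, adjusted p = 0.0114), was the largest of the set. Acaa1a fell by 0.66 (SE 0.22, adjusted p = 0.0311), with adjusted p of 0.068 to 0.102 without CD Vec replicate 2 or CD Onco replicates 1 or 3, and of 0.19 with total counts as the scale.

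Ehhadh, the bifunctional enzyme of peroxisomal oxidation, was at 446, 226 and 305 CPM in CD Vec, 250, 147 and 150 CPM in CD Onco, 341, 345 and 194 CPM in LPD Vec and 176, 581 and 415 CPM in LPD Onco. The groups overlapped on both diets, and its log2 fold change on CD of -0.83 did not pass (SE 0.41, adjusted p = 0.135). It passed with LPD Vec replicate 3 and LPD Onco replicate 1 both left out (adjusted p = 0.0482).

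The 2 genes of ketone synthesis had log2 fold changes of opposite sign on CD. Acat1, the mitochondrial thiolase that joins acetyl-CoA units, was at 519, 505 and 369 CPM in CD Vec, 286, 225 and 163 CPM in CD Onco, 577, 585 and 473 CPM in LPD Vec and 376, 424 and 488 CPM in LPD Onco. Acat1 fell by 1.05 on CD (SE 0.21, adjusted p = 0.00252), and on LPD it had -0.34 (SE 0.21, adjusted p = 0.626). Bdh1, which makes 3-hydroxybutyrate from acetoacetate, was at 420, 387 and 369 CPM in CD Vec and 432, 677 and 486 CPM in CD Onco, and at 429, 439 and 383 CPM in LPD Vec and 373, 459 and 388 CPM in LPD Onco. Its CD oncogene libraries were all higher than its CD vector libraries, with a log2 fold change of 0.44 that narrowly missed the threshold (SE 0.17, adjusted p = 0.0616). It passed by DESeq2 (adjusted p = 0.0454), with total counts as the scale (0.00711) and without CD Onco replicate 1 (0.0205).

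Pdk4, the kinase that shuts pyruvate dehydrogenase when fat is burned, went the other way. It was at 7.03, 1.99 and 2.60 CPM in CD Vec, 109, 24.4 and 30.7 CPM in CD Onco, 7.72, 11.4 and 8.26 CPM in LPD Vec and 7.92, 16.0 and 9.01 CPM in LPD Onco. Every CD oncogene library was above the other 9, and replicate 1 was far above its companions. Pdk4 rose 14.0-fold on CD (log2 3.81, SE 0.64, adjusted p = 0.00105). The log2 rise was 2.82 without CD Onco replicate 1 and 4.57 without CD Vec replicate 1, and it passed in both. On LPD the log2 difference was 0.27 (SE 0.58, adjusted p = 0.939).

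**Figure D4:**
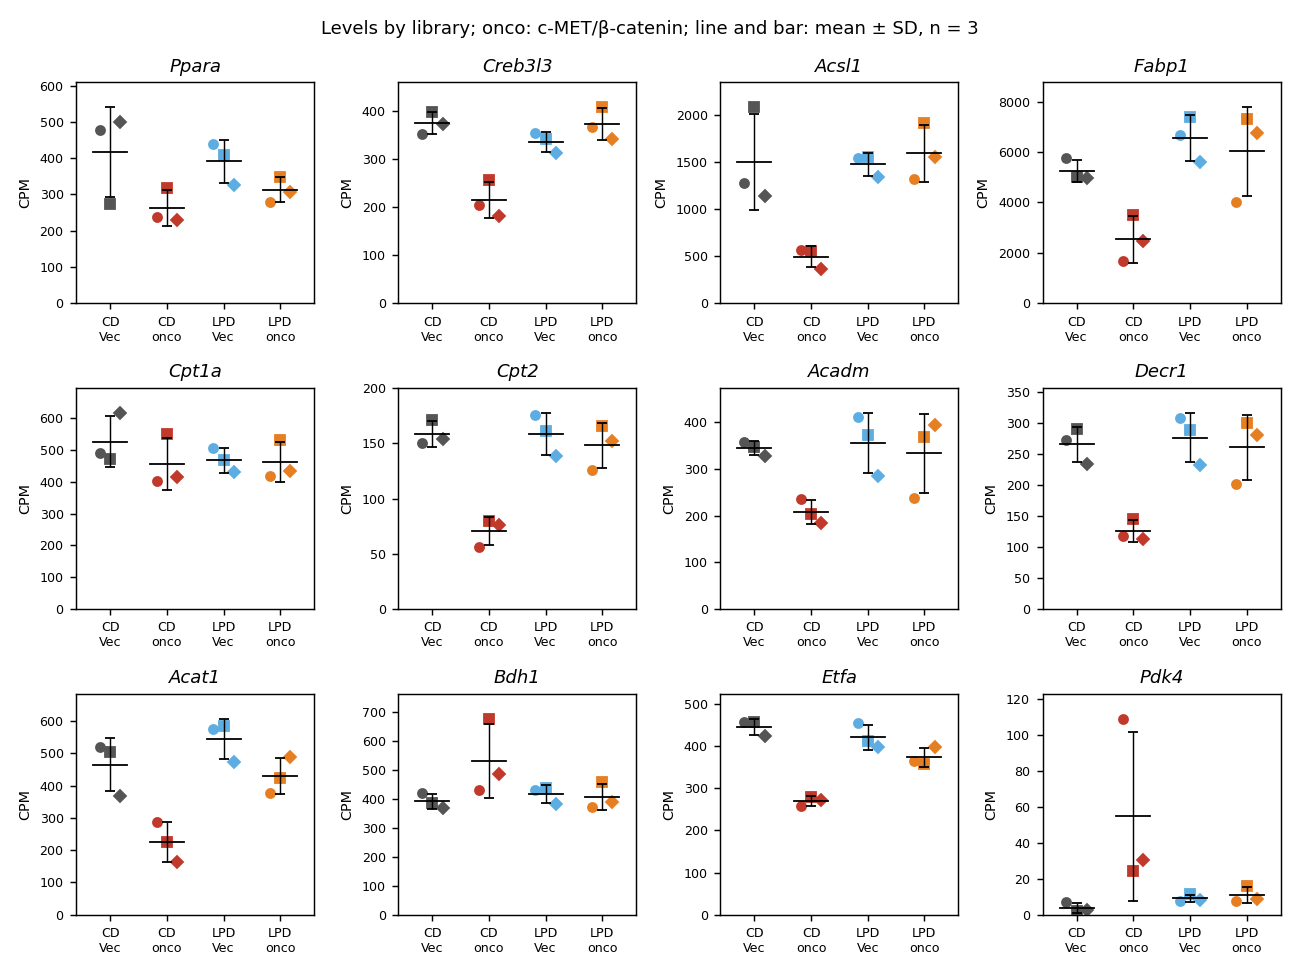
CPM (linear axis from 0) of 12 genes by group, with circle, square and diamond for replicates 1, 2 and 3 and a line and bar for the mean ± SD (n = 3). The CD Onco libraries lie below the other groups for Acsl1, Cpt2, Acat1 and Etfa and above them for Pdk4, while the groups overlap for Cpt1a.

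Diet alone was compared in the vector mice, and there 0 of the 37 genes passed, where 0.308% of all genes did. The unadjusted p was under 0.05 for 1 gene, against 9.87% of all genes, and DESeq2 called 1, which was Crot in both cases. The median log2 fold change of the set was 0.00 and that of all genes -0.03. Crot, the peroxisomal carnitine octanoyltransferase, was at 429, 345 and 453 CPM in CD Vec and 850, 797 and 847 CPM in LPD Vec, and at 217, 287 and 457 CPM in CD Onco and 537, 729 and 691 CPM in LPD Onco. The LPD libraries were above the CD libraries within each injection. The log2 difference was 1.02 in Vec (SE 0.24, adjusted p = 0.0886) and 1.03 in Onco (SE 0.24, adjusted p = 0.0109), and the difference between these was 0.00 (interval -0.72 to 0.73). In Vec it passed without CD Onco replicate 1 or replicate 3, which enter the fit through the shared estimate of the spread. With the runs of dataset numbers described below as a term in the fit, the Onco difference of Crot was 0.51 (adjusted p = 0.32). Within the run that held all 4 groups it was 0.50 in Onco and 0.86 in Vec, values with no test.

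Among the Onco mice, LPD against CD raised 18 of the 37 genes and lowered 2, against 8.66% higher and 11.3% lower among all genes (20% in either direction). This comparison shares the CD Onco libraries with the oncogene comparison on CD, so the 2 counts are not separate evidence. The median log2 fold change was 0.59, against -0.01 over all genes, and 34 of the 37 values were positive. Among those called Acot1, Acsl1 and Acaa1b rose most, and Pdk4 and Ppargc1a fell. The count was 11 without LPD Onco replicate 3, 13 without replicate 2 and 19 without replicate 1, and the share of all genes called also fell, to 11.1%, 13.9% and 12.6%. With LPD Vec replicate 3 and LPD Onco replicate 1 both left out it was 17, all higher, where 9.64% of all genes were called, and the median was 0.77. Ppargc1a, Acadvl, Acaa2, Etfa and Pdk4 then missed the threshold (adjusted p of 0.0565 to 0.0932), and Decr2 and Ehhadh passed (0.043 and 0.0204).

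By role, 5 of 9 genes of the mitochondrial spiral, 3 of 5 of the carnitine shuttle, 3 of 7 of acyl-CoA supply, 2 of 3 of electron transfer, 2 of 4 for unsaturated chains, 1 of 3 of the peroxisomal spiral and 1 of 2 of ketone synthesis were higher on LPD. Acsl1 was 3.23-fold higher (log2 1.69, SE 0.25, adjusted p = 0.00128), Fabp1 2.38-fold (1.25, SE 0.28, 0.00939), Cpt2 2.10-fold (1.07, SE 0.16, 0.00125) and Decr1 2.08-fold (1.06, SE 0.18, 0.00234). Acat1 rose by 0.93 and Creb3l3 by 0.80 on the log2 scale (adjusted p = 0.00978 and 0.00344). These 6 passed with each of the 12 libraries left out in turn, and so did Acot1, Crot, Etfdh, Hadha and Hadhb. Hadha and Hadhb, whose promoter windows overlap, were higher by 0.61 and 0.59 (SE 0.14 and 0.14).

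Acot1 was at 17.0, 12.6 and 11.3 CPM in CD Onco and at 23.2, 136 and 70.3 CPM in LPD Onco, with no overlap. The rise was 5.62-fold (log2 2.49, SE 0.58, adjusted p = 0.0125), or 1.79 on the log2 scale without LPD Onco replicate 2. Acaa1b rose by 1.47 (SE 0.46, adjusted p = 0.0439), although replicate 1 of LPD Onco lay among the CD values, and its call was lost with any of 7 libraries left out (adjusted p up to 0.14). Those were LPD Vec replicates 1 and 2, CD Vec replicate 3, LPD Onco replicates 2 and 3 and CD Onco replicates 1 and 3.

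Several smaller rises depended on the same libraries. Acadm (0.68), Slc25a20 (0.66), Eci1 (0.75) and Etfa (0.47) each lost the call without LPD Onco replicate 3, with adjusted p of 0.117, 0.067, 0.0718 and 0.0602. Without LPD Onco replicate 2, Acadm, Slc25a20 and Eci1 had 0.0928, 0.0687 and 0.0604. Among the CD oncogene libraries, Acadm lost it without replicate 2 (0.0734) or 3 (0.0806), Slc25a20 without replicate 3 (0.0568) and Eci1 without replicate 1 (0.0575). Acadvl and Acaa2 rose by 0.48 each (adjusted p = 0.0469 and 0.0437) and were called in 4 and 3 of the 12 leave-one-out fits. Ehhadh, with 1.10 (SE 0.41, adjusted p = 0.0819), passed without LPD Onco replicate 1 (adjusted p = 0.0217) and by DESeq2 (0.0322).

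The 2 genes that fell had their highest mean of the 4 groups in CD Onco. Pdk4 fell by 2.31 on the log2 scale (SE 0.59, adjusted p = 0.0186), or by 1.32 without CD Onco replicate 1, where the adjusted p was 0.0702. It also lost the call without LPD Onco replicate 1 or replicate 3 (0.0689 and 0.0703). Ppargc1a fell by 1.12 (SE 0.30, adjusted p = 0.0229), with the groups separate, and had adjusted p of 0.0523 to 0.0777 without any LPD Onco library or without CD Onco replicate 1. Ppara did not pass (log2 0.25, SE 0.22, adjusted p = 0.469), nor did Cpt1a (0.02, SE 0.17, adjusted p = 0.961; -0.06 with total counts as the scale), Vnn1 (0.56, SE 0.56, adjusted p = 0.529) or Bdh1 (-0.39, SE 0.17, adjusted p = 0.13).

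**Figure D5:**
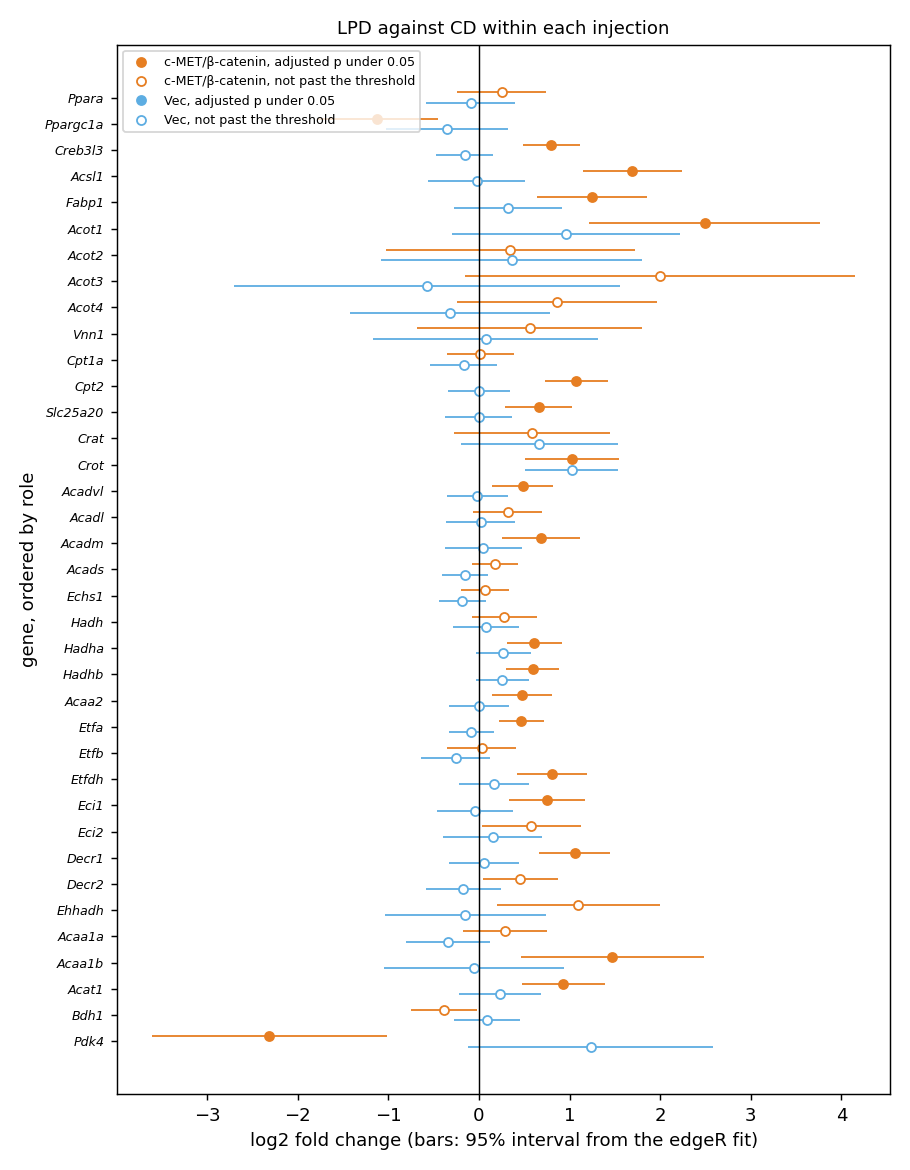
Log2 fold change of LPD against CD for each gene in Onco (orange) and Vec (blue) mice, with 95% intervals from the edgeR fit; filled points passed an adjusted p of 0.05. In Onco 20 points are filled, 18 of them right of 0, and in Vec 0 are filled; Crot lies at 1.03 and 1.02.

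A test of the difference between the diets in the effect of the oncogenes used the interaction, the log2 fold change on LPD minus that on CD. It passed for 5 genes (13.5%), where 8.91% of all genes passed (4.49% positive and 4.42% negative). Creb3l3, Acsl1, Cpt2 and Decr1 had positive interactions of 0.96 (SE 0.20, adjusted p = 0.0176), 1.72 (SE 0.35, 0.0148), 1.07 (SE 0.22, 0.0161) and 0.998 (SE 0.25, 0.0322). Cpt2 and Decr1 thus had a less negative value on LPD than on CD, and Creb3l3 and Acsl1 a small positive one on LPD. Pdk4 had -3.54 (SE 0.85, adjusted p = 0.0286), its value on LPD being positive and below that on CD. The median over the set was 0.50, against 0.02 over all genes, with 32 of the 37 values positive, and 16 genes had an unadjusted p under 0.05, against 25.8% of all genes. All 9 values of the mitochondrial spiral were positive, from 0.21 to 0.64, and 0 of the 9 passed. Etfa came nearest outside the calls (0.55, SE 0.16, adjusted p = 0.0538) and passed by DESeq2 (0.00208), and Etfdh passed without CD Onco replicate 1 (0.82, adjusted p = 0.0486).

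These calls depended on the libraries. Acsl1 and Cpt2 passed with each of the 12 left out in turn. Creb3l3 did not without LPD Vec replicate 2 (adjusted p = 0.0533) or replicate 3 (0.0519). Decr1 was called in 4 of the 12 fits and Pdk4 in 6, with adjusted p up to 0.0818 and 0.0749. The Pdk4 value was -2.55 without CD Onco replicate 1 and -4.31 without CD Vec replicate 1. The count of 5 was 2 without LPD Vec replicate 2 or replicate 3, and 3 without CD Vec replicate 2 or LPD Onco replicate 3. With these left out in that order, 2.75%, 3.8%, 8.15% and 3.57% of all genes passed. With LPD Vec replicate 3 and LPD Onco replicate 1 both left out, a choice made after seeing the data, it was 0 (17 with an unadjusted p under 0.05), where 1.33% of all genes passed. The 5 log2 values then were 0.93, 1.78, 1.09, 1.05 and -3.42 in the order above.

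The dataset numbers in the column headers fell into 3 runs, of which 1 held only CD Onco replicates 1 and 2 and another CD Vec replicates 1 and 2 with LPD Vec replicate 1. What the runs stand for is not given in the sources used here. With the run as a term in the fit, 3 genes passed on CD (Creb3l3, Acsl1 and Acat1, where 6.78% of all genes did), 5 for LPD against CD in Onco (Creb3l3, Acsl1, Eci2, Decr1 and Acat1, where 4.43% did) and 0 in the interaction (0.609%), and each of the genes called without the term kept its sign. The medians of the set in that fit were -0.52, 0.78 and 0.59, against -0.52, 0.59 and 0.50 without the term. Within the run that held libraries of all 4 groups, the median log2 difference of the set was -0.57 for the oncogenes on CD, -0.004 for the oncogenes on LPD, 0.08 for diet in Vec, 0.74 for diet in Onco and 0.58 for the interaction. That run had 1 library of each CD group, 2 of LPD Vec and 3 of LPD Onco, so these are values with no test.

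The rest of the pathway was read from 71 further genes of uptake, lipolysis, peroxisomal import, acyl-CoA dehydrogenases, malonyl-CoA control, nuclear partners and ketone use, of which 69 were tested. On CD, 27 were lower and 8 higher, against 16.7% and 18.7% of all genes. For LPD against CD in Onco, 23 were higher and 3 lower, against 8.66% and 11.3%, and in the interaction 17 were positive and 1 negative, against 4.49% and 4.42%. These 18 were 7 without LPD Vec replicate 2, 9 without LPD Vec replicate 3 and 10 without LPD Onco replicate 3, and 1 with the header runs as a term or with the 2 low libraries left out. With total counts as the scale, 22 were lower and 14 higher on CD, in a fit that called 40.7% of all genes in either direction and had their median at 0.28. In the oncogene comparison on LPD and in the diet comparison in Vec 0 passed, where 1.32% and 0.308% of all genes did. An unadjusted p under 0.05 was seen for 10 and 17 of the 69, against 11.1% and 9.87% of all genes. Peroxisomal oxidation and import gave 9 lower and 1 higher of 19 on CD, and the other acyl-CoA dehydrogenases 7 lower of 8, with 5 of 8 positive in the interaction. Other roles were mixed on CD, with 2 higher and 1 lower of 6 for ketone export and use, 1 and 1 of 7 for lipid droplets and lipolysis, 2 and 3 of 12 for uptake and activation, 1 and 3 of 5 for malonyl-CoA and AMPK control, and 1 and 3 of 12 for nuclear partners.

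Bdh2, a cytosolic dehydrogenase, was at 17.7, 17.3 and 14.4 CPM in CD Vec, 0.92, 1.22 and 2.25 CPM in CD Onco, 7.34, 6.67 and 6.87 CPM in LPD Vec and 8.55, 7.47 and 8.40 CPM in LPD Onco. It fell by 3.50 on CD (adjusted p = 1.4e-05), was 5.58-fold higher on LPD than on CD among oncogene mice (adjusted p = 0.000343) and had an interaction of 3.72 (adjusted p = 0.000638). The diet difference in Vec, -1.24, had an adjusted p of 0.0608. The CD Onco libraries were below the other 9, and the LPD Onco libraries lay between them and CD Vec.

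Nudt7, which breaks down CoA in peroxisomes, was at 408, 1008 and 706 CPM in CD Vec, 45.7, 166 and 124 CPM in CD Onco, 451, 528 and 733 CPM in LPD Vec and 694, 380 and 472 CPM in LPD Onco. It fell by 2.66 on CD (adjusted p = 0.00116) and was higher by 2.20 on LPD in oncogene mice (adjusted p = 0.00687), with an interaction of 2.51 (adjusted p = 0.0323) that was lost with any of 7 libraries left out (adjusted p up to 0.0868): all 3 LPD Vec libraries, CD Vec replicates 2 and 3 and LPD Onco replicates 1 and 3.

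In the other direction, Hilpda, an inhibitor of lipolysis, rose on CD by 2.64 (adjusted p = 0.0196), with 47.6 CPM in CD Onco replicate 1 against 5.22 and 5.32 CPM in its companions. Without that library the rise was 0.75 (adjusted p = 0.103), and without CD Vec replicate 1 or 3 the adjusted p was 0.0646 and 0.0516. Abcd2, a peroxisomal importer of very long chains, rose by 2.59 (adjusted p = 0.0184), by 4.14 without CD Vec replicate 1, and missed the threshold without CD Vec replicate 3 (0.0544) or CD Onco replicate 2 (0.0554). For LPD against CD in Onco, Hilpda fell by 2.60 (adjusted p = 0.032; fell by 0.72 without CD Onco replicate 1, adjusted p = 0.161, and 0.0846 to 0.0958 without any 1 LPD Onco library). The synthetase Acsl3 fell by 1.32 (adjusted p = 0.00492) in the same comparison and had an interaction of -2.0 (adjusted p = 0.00932). Acsl3 was at 21.3, 10.2 and 26.1 CPM in CD Vec, 30.9, 41.4 and 37.8 CPM in CD Onco, 30.4, 32.4 and 30.0 CPM in LPD Vec and 13.3, 15.9 and 14.8 CPM in LPD Onco. Acsl1 and Acsl3, both long-chain synthetases, had interactions of opposite sign.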

How the data were processed

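Total RNA from snap-frozen mouse liver was sequenced in 12 libraries, 3 in each of 4 groups. The authors aligned reads with HISAT2 to mm10 and counted them per Entrez gene with featureCounts, per the labels and file headers, and deposited raw counts. Versions, strand setting and the handling of multi-mapped reads are not given in the sources used here. The labels name an rRNA depletion kit and the study's methods a poly(A) kit, so the library type is uncertain. Column headers call the chow groups HPD, and groups followed the sample titles and their column names in the descriptions. Identifiers were matched to symbols with RefSeq and GENCODE tables.

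Counts were tested with edgeR 4.0.16 in R 4.3.3 (TMM, filterByExpr, robust quasi-likelihood fit of all 4 groups, 8 residual degrees of freedom, biological coefficient of variation 23.2%). Adjusted p-values are Benjamini-Hochberg over the 13947 genes tested, called under 0.05. Log2 fold changes have their SE and 95% intervals. Replicates are separate libraries per the series design, and p-values measure the spread between them. The members and lists were chosen with earlier results of these data known. Values per library are given for 13 listed genes and, in each comparison, the 3 called members with the largest changes each way. Echs1, Decr1, Etfa and Crot were added after their values were seen. Of other pathway genes the 2 largest each way are named. Alternatives were total counts as the scale, no filter on low counts, a replicate block, header runs as a term, only the groups compared, DESeq2 1.42.0 and each library left out. The edgeR fit was also run on simulated counts, and the outcome is not given here.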

Additional observations from a re-analysis of the deposited data

Results flagged for a closer look

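The oncogene effect differed between the diets, by the interaction term of the edgeR fit, for 5 genes of the set (13.5%), where 8.91% of all genes passed, and for 0 with the header runs as a term, where the values were 1.18 for Creb3l3, 2.02 for Acsl1, 0.93 for Cpt2, 1.06 for Decr1 and -2.79 for Pdk4. The log2 interaction (LPD effect minus CD effect) was 0.96 for Creb3l3, 1.72 for Acsl1, 1.07 for Cpt2, 0.998 for Decr1 and -3.54 for Pdk4, with adjusted p of 0.0176, 0.0148, 0.0161, 0.0322 and 0.0286. Among the named genes of the rest of the pathway it was -2.0 for Acsl3, 2.51 for Nudt7 and 3.72 for Bdh2, with adjusted p of 0.00932, 0.0323 and 0.000638. Of these 8, Bdh2 passed in every alternative tried, and Acsl1, Cpt2 and Acsl3 passed with each single library left out and missed the threshold with the header runs as a term and with LPD Vec replicate 3 and LPD Onco replicate 1 both left out.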

How the results depend on the processing

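With the header runs as a term, the genes called were 3 for the oncogenes on CD, 5 for diet in Onco and 0 for the interaction, and 10, 3 and 1 in the rest of the pathway. DESeq2 called 2 for the oncogenes on LPD and 1 for diet in Vec, and 23, 21 and 6 in the other comparisons of the set, against 2.89% and 2.43% and 33%, 21% and 13.8% of all genes. Leaving out each library in turn gave 17 to 23 on CD, 0 to 1 on LPD, 0 to 1 for diet in Vec, 11 to 20 for diet in Onco and 2 to 5 for the interaction, and 30 to 37, 18 to 30 and 7 to 19 in the rest of the pathway for CD, diet in Onco and the interaction. The lowest values came without CD Onco replicate 3 (17, where 33.5% of all genes were called), LPD Onco replicate 3 (11 and 18), LPD Vec replicate 2 (2 and 7) and CD Vec replicate 3 (30). With LPD Vec replicate 3 and LPD Onco replicate 1 both left out, an alternative chosen after seeing the data, the interaction gave 0 in the set and 1 in the rest of the pathway, and diet in Onco 16 in the rest of the pathway; fewer samples were then compared. Other causes were not tested. With total counts as the scale Cpt1a changed sign, to 0.083 on CD and -0.061 for diet in Onco. The latter ran from -0.097 to 0.17 in leave-one-out fits, with -0.097 without LPD Onco replicate 2 and -0.067 and -0.044 without CD Onco replicates 1 and 3, and Vnn1 on CD ran from -0.14 to 0.66, with -0.096 and -0.14 without CD Vec replicate 3 and CD Onco replicate 2. The replicate block gave 19, 0, 0, 16 and 5 calls, against 32.4%, 1.08%, 0.115%, 17.1% and 5.82% of all genes. Deviations of libraries with the same number correlated at -0.11 to 0.17 in the pairs of groups compared. Such correlations cannot tell whether these libraries shared more than a number. Counts of calls without the filter on low counts and with only the groups compared stayed within 1.5 times. With 3 libraries per group, wide intervals for Acot3 and Vnn1 limit what can be said of them.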
